A study of Mus musculus with 3 samples.

Results

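The mouse IFIT gene cluster on chromosome 19 is described here through Ifit1, Ifit1bl1, Ifit2, Ifit3 and Ifit3b, chosen by symbol from tables of RNA held on the chromatin of bone marrow-derived macrophages. These were 5 of 55536 annotated genes, with 7 of 141862 annotated transcripts. The macrophages were grown from C57BL/6J bone marrow. They were exposed to Lipid A, the Toll-like receptor 4 agonist part of bacterial lipopolysaccharide, at 100 ng/ml for 12 h, kept without it for 12 h, and exposed again at 100 ng/ml for 120 min. All 3 libraries belonged to this 1 condition and were made from chromatin-bound RNA after removal of ribosomal RNA, with 1 µg, 250 ng and 500 ng of RNA as input for replicates 1, 2 and 3. No untreated or once-treated cells were analysed here, so the values below are levels and not responses. The labels name biological replicates but no separate animals. Each SD therefore reflects how far these 3 samples lie apart, and that distance may be technical. Each p-value reflects mainly whether a difference has the same sign in these samples, and does not measure their spread.

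IFIT stands for interferon-induced protein with tetratricopeptide repeats, a family of cytoplasmic proteins built from repeated helical modules. Type I interferon, made after Toll-like receptor 4 or virus sensing, acts through its receptor, the kinases Jak1 and Tyk2, and a transcription factor complex that contains Stat2 and Irf9. That complex binds interferon-stimulated response elements near IFIT genes and other antiviral genes, and IFIT transcripts are among the classical early products of this response in macrophages. IFIT proteins then limit virus growth, in part by holding viral RNA away from the translation machinery.

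Levels are given as TPM, a length-scaled share of all transcripts. It divides reads by transcript length, so that genes can be set beside each other. That length counts annotated exons only, and how chromatin RNA that still holds introns bears on the levels was not tested. Unless stated, levels come from the alignment-based gene tables. A second, read-based quantification of the same libraries is set beside them. The alignment-based tables held 10293545, 17820066 and 17548564 estimated counts in replicates 1, 2 and 3. Replicate 1 stood apart. Over 17110 genes the median SD of log2 CPM was 0.345 with all libraries and 0.17 without replicate 1, against 0.32 without replicate 2 and 0.31 without replicate 3. The deposited effective lengths also lay 149.7 bases below the transcript lengths of these genes in replicate 1, against 257 bases in replicate 2 and 251 bases in replicate 3. The macrophage label matched its markers, since 10 of 10 macrophage markers were expressed, at a summed 1091 to 1698 TPM per library. Of 21 markers of other cell types, 2 were expressed, Kdr and Alas2, and 5 were listed at 0. Their summed level was 15.6 to 16.4 TPM. These marker values are alignment-based. By read-based TPM the highest means among the 21 were Cd3d at 14.1, Alas2 at 10.5, Kdr at 8.80 and Pecam1 at 7.87 TPM. In bulk RNA, fewer cells that express a gene and less RNA per cell cannot be told apart.

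All 5 genes were expressed, which here means at least 1 TPM in each of the 3 libraries, a level reached by 42.0% of the 22028 protein-coding genes. They formed an upper set of Ifit2, Ifit3 and Ifit1 and a lower set of Ifit3b and Ifit1bl1. The upper set lay between 79.2 and 205 TPM in single libraries and the lower set between 10.5 and 16.5 TPM, with no overlap. Together the 5 genes summed to 482, 474 and 442 TPM in replicates 1, 2 and 3, or 466 ± 20.99 TPM (SD, n = 3). In the read-based tables the sum was lower and more variable, at 473, 331 and 324 TPM, or 376 ± 84.1 TPM.

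Ifit2, which in mice limits the spread of several RNA viruses in the nervous system, had the highest mean. It is annotated at chr19:34550694-34576419 on the plus strand (mm10, GENCODE M21). Its level was 172, 205 and 189.6 TPM in replicates 1, 2 and 3, a mean of 189 ± 16.5 TPM (SD, n = 3), rank 219 of the 9245 expressed protein-coding genes and 15.6-fold above their median of 12.1 TPM. No library stood far from the others for Ifit2, and it supplied 40.6 ± 4.27% of the summed TPM of the 5 genes. The estimates rested on 7697, 11331 and 11621 counts.

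Ifit3, whose human counterpart binds IFIT1 and stabilises it, lies at chr19:34583531-34588731 on the plus strand. It had 193, 166 and 125 TPM in replicates 1, 2 and 3, with a mean of 161 ± 34.0 TPM (SD, n = 3) and a rank of 277. Replicate 1 was the highest and replicate 3 the lowest, and its range overlapped that of Ifit2. Leaving out replicate 1 gave a mean of 145 TPM for Ifit3 and 197 TPM for Ifit2.

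Ifit1 encodes a protein that recognises capped RNA without methylation of its first ribose, a feature of some viral RNA, and blocks its translation. It lies at chr19:34640871-34650009 on the plus strand. Its level was 85.2, 79.2 and 104 TPM in replicates 1, 2 and 3, a mean of 89.4 ± 12.8 TPM (SD, n = 3) and rank 650, 7.40-fold above the median expressed gene. Replicate 3 was the highest, whereas replicate 3 was the lowest for Ifit3.

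Ifit3b, a near copy of Ifit3 found in mice, lies at chr19:34607970-34613401 on the plus strand. It had 15.9, 13.4 and 10.9 TPM, a mean of 13.4 ± 2.47 TPM (SD, n = 3). Ifit1bl1, an Ifit1-like gene at chr19:34592891-34601956 and the only 1 of the 5 on the minus strand, had 16.5, 10.5 and 13.0 TPM, a mean of 13.3 ± 2.99 TPM (SD, n = 3). Both lay near the middle of the expressed genes by alignment-based TPM, at ranks 4327 and 4341, and both were highest in replicate 1. Their percentiles were 53.2 for Ifit3b and 53.0 for Ifit1bl1 by alignment-based TPM, against 39.2 for Ifit3b and 35.5 for Ifit1bl1 by read-based TPM among the same 9245 genes. Leaving that library out gave means of 12.2 TPM for Ifit3b and 11.8 TPM for Ifit1bl1.

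**Figure D1:**
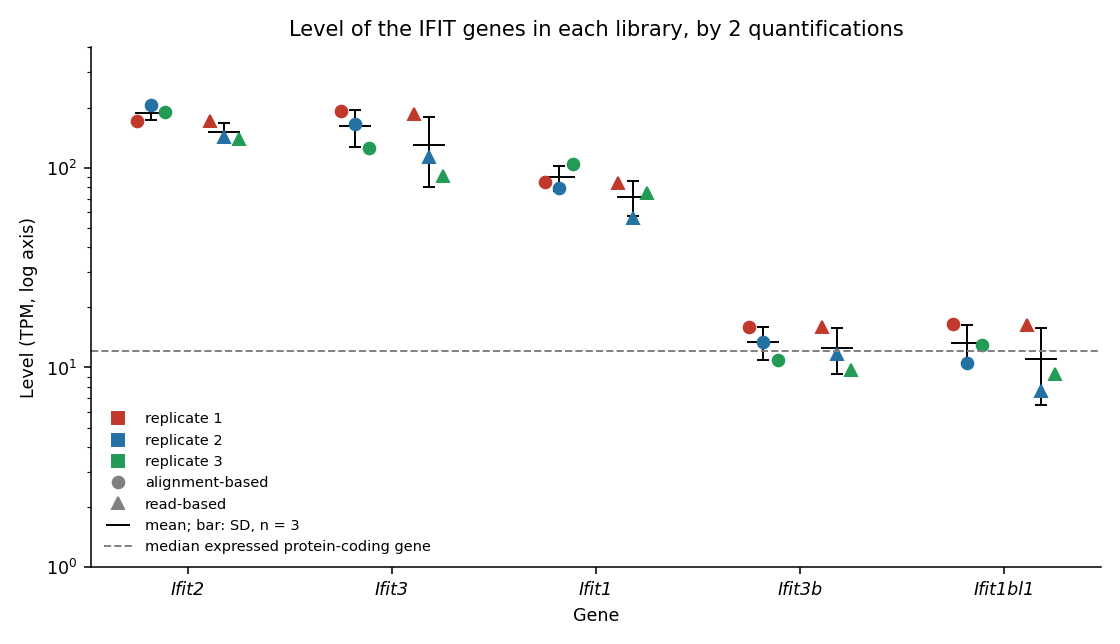
Level in TPM on a log axis (vertical) of the 5 genes (horizontal) in each library, with alignment-based values as circles left of read-based values as triangles, the mean as a line and the SD (n = 3) as a bar. Ifit2, Ifit3 and Ifit1 lie above the dashed median of expressed protein-coding genes at 12.1 TPM in all libraries, and Ifit3b and Ifit1bl1 lie around it.

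Neighbours in the order of level were compared within each library on the log2(TPM + 0.1) scale, by an exact two-sided sign-flip permutation test adjusted over the 4 pairs by the Benjamini-Hochberg method. With 3 libraries this exact test cannot go below p = 0.25. Ifit2 exceeded Ifit3 in 2 of 3 libraries, with differences of -0.16, 0.30 and 0.60 in replicates 1, 2 and 3. The mean was 0.25 ± 0.39 (SD, exact p = 0.5, adjusted 0.667), and the order of these genes was not the same in every library. Ifit3 exceeded Ifit1 in 3 of 3 libraries by a mean of 0.84 ± 0.49 (exact p = 0.25, adjusted 0.5). The gap ranged between 1.18 in replicate 1 and 0.27 in replicate 3. Ifit1 exceeded Ifit3b in 3 of 3 libraries by 2.74 ± 0.44 (exact p = 0.25, adjusted 0.5), the step between the upper and the lower set and the widest of the 4. Ifit3b and Ifit1bl1 differed by 0.01 ± 0.30 with Ifit3b higher in 1 of 3 libraries (exact p = 1), and this sign turned to -0.15 without replicate 2. With CPM, which is not divided by length, the differences were 1.48 for Ifit2 minus Ifit3, 0.16 for Ifit3 minus Ifit1, 3.19 for Ifit1 minus Ifit3b and -0.14 for Ifit3b minus Ifit1bl1, so the gaps among Ifit2, Ifit3 and Ifit1 depend on the scale.

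TPM is a share of a total, and much of the total here came from short and mitochondrial genes. Annotated nuclear genes whose effective length was 200 bases or more held 34.1%, 45.9% and 40.7% of the TPM of annotated genes in replicates 1, 2 and 3. Rescaled to those genes alone, the means became 473 TPM for Ifit2, 412 TPM for Ifit3, 226 TPM for Ifit1, 34.3 TPM for Ifit3b and 34.5 TPM for Ifit1bl1. The rescaling multiplies all genes of a library alike, so ratios between genes within a library do not change. The factor differs between libraries, so comparisons of libraries do change. The close sums of the members across libraries, given above, therefore apply to alignment-based TPM as deposited.

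The cluster spans 99.3 kb, chr19:34550694-34650009, and contains 7 annotated genes. These are the 5 members, 4 on the plus strand and 1 on the minus strand, the Ifit1-like gene Ifit1bl2 on the minus strand, and 1 processed pseudogene. No member overlaps another annotated gene on either strand. Reads from unannotated transcripts could not be told apart from those of the members, since whether counting used strand is not known. Level did not rise or fall steadily along the cluster. Ifit2 and Ifit3 at one end and Ifit1 at the other were high, while Ifit1bl1 and Ifit3b between them were low.

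Ifit1bl2 lies at chr19:34617049-34640743 between Ifit3b and Ifit1, and was not expressed by the threshold used here in the alignment-based tables. It had 0.13, 0.25 and 0.09 TPM, from 5.03, 12.0 and 5.01 estimated counts. Its annotated start stands head to head with that of Ifit1, 127 bases away on the opposite strand, and Ifit1 had at least 79.2 TPM in each library. In the read-based tables Ifit1bl2 had 1.47, 1.05 and 1.01 TPM from 88.4, 88.2 and 88.5 estimated counts, which passes that threshold, so the call depends on the quantification. Ifit1bl2 shares transcript sequence with Ifit1 and Ifit1bl1, and whether this moved its read-based counts was not tested.

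**Figure D2:**
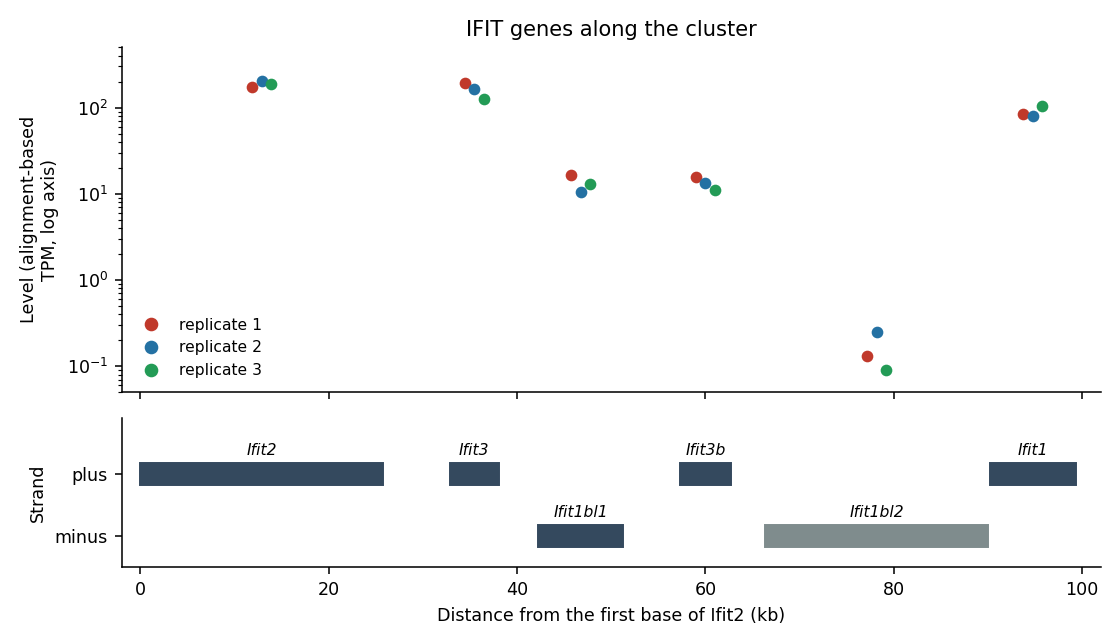
Level in alignment-based TPM on a log axis in each library (upper panel) above the span of each gene on its strand (lower panel), against distance in kb from the first base of Ifit2. The 5 genes are dark and Ifit1bl2 is grey, with the pseudogene not drawn. Ifit1bl2 at 0.09 to 0.25 TPM lies directly beside Ifit1 at 79.2 to 104 TPM.

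Of the 8 other listed genes around the cluster, the lipase gene Lipa, which encodes lysosomal acid lipase, had an alignment-based level within the range of the members. Lipa had 15.9, 26.6 and 22.7 TPM, above Ifit3b and Ifit1bl1 in mean. The death receptor gene Fas averaged 7.73 ± 2.43 TPM and the deubiquitinase gene Stambpl1 3.90 ± 0.597 TPM (SD, n = 3 each). Fas was higher in the read-based tables, at 23.2, 18.0 and 14.0 TPM, above read-based Ifit3b in each library. By alignment-based TPM, Kif20b, Ch25h, Pank1, Acta2 and Slc16a12 averaged 0.873, 0.513, 0.43, 0.237 and 0.00667 TPM, each under 1 TPM in at least 1 library. Ch25h, cholesterol 25-hydroxylase, is itself known as an interferon-stimulated gene in mouse macrophages, and its values were 0.73, 0.40 and 0.41 TPM.

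The promoters of the 5 genes, all found in the RefSeq promoter table (build GRCm38.p6, the assembly called mm10), were searched in a window of 250 bases before to 50 bases after each annotated start. The interferon-stimulated response element core was taken as GAAANNGAAA on either strand. It occurred in 3.44% of 32851 promoter windows and at least 2 times in 0.225% of them. The windows of Ifit1, Ifit3 and Ifit3b held 2 matches each, and each of the 2 annotated starts of Ifit1bl1 held 1. Neither of the 2 Ifit2 windows held these letters, which says only that they are not in these windows. The 200 bases before 1 start of each gene are given, written along the gene from 5′ to 3′ and ending at the base before the start, because they show the matches and their spacing, with Ifit2 as the gene without one. Capitals mark the core, which reads as TTTCNNTTTC where it lies on the strand opposite to the gene.
Ifit2, chr19:34550494-34550693, plus strand: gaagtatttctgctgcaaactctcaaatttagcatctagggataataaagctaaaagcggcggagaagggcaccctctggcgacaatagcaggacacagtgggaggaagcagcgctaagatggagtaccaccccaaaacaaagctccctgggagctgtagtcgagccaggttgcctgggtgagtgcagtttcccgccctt
Ifit3, chr19:34583329-34583528, plus strand: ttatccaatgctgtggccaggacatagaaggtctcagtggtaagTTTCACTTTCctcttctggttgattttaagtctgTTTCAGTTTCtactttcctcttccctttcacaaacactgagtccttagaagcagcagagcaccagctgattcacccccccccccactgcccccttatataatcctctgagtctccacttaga
Ifit3b, chr19:34607757-34607956, plus strand: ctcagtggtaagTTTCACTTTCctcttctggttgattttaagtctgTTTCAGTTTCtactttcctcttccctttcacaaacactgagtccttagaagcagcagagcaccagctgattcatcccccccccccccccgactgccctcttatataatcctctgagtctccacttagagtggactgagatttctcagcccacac
Ifit1, chr19:34640689-34640888, plus strand: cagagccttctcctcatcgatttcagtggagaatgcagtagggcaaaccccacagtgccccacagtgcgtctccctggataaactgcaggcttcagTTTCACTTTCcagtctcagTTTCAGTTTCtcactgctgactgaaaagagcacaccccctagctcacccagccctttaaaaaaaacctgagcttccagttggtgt
Ifit1bl1, chr19:34601969-34602168, minus strand: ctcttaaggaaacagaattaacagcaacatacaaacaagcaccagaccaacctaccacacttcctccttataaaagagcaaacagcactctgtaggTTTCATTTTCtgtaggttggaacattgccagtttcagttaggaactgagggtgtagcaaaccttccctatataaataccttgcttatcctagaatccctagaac

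The matches of Ifit3 began 156 and 122 bases before the start and those of Ifit3b 188 and 154 bases before its start. The 2 windows were near copies, with 258 of 260 aligned bases identical outside gaps, or 99.2%, and the same pair of core sequences at the same spacing. The TPM of Ifit3 was 12.0 ± 0.497-fold that of Ifit3b (SD, n = 3). In Ifit1 the matches began 104 and 85 bases before the start. They were the same bases, chr19:34640785-34640794 and chr19:34640804-34640813, that form the 2 matches before a start of Ifit1bl2 on the other strand. The window of the other annotated start of Ifit1bl2, chr19:34629811, held no match. Windows with 2 matches belonged to Ifit3, Ifit1, Ifit3b and Ifit1bl2, with means of 161, 89.4, 13.4 and 0.157 TPM. The gene of highest level, Ifit2, had none in the windows searched. These matches are a description of letters. Binding was not measured, and whether the matches bear on level was not tested.

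Other searched motifs were rarer among the genes. The gamma-activated site core, TTCNNNGAA, occurred in 8.30% of promoter windows and in that of Ifit2 at 1 palindromic place, 241 bases before the start. A kappa-B core, GGGANNTTCC, occurred in 1.47% of windows, among the 5 genes only before Ifit2, 247 bases before the same start and overlapping the gamma-activated site core. Both lie outside the 200 bases given above. The TATA box core TATAAA occurred in 13.6% of windows and among the 5 genes only before Ifit1bl1, in the windows of both starts.

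Because Ifit3 and Ifit3b are near copies, both levels depend in part on how shared reads are split between them. Over the coding sequence, 1198 of 1209 bases were identical, or 99.1%, and the longest identical run was 329 bases. Of the 1150 stretches of 60 coding bases, 63.9% held no difference at all. The most in any stretch was 4, and such a stretch is given below from the annotation's transcripts (GENCODE M21, mm10; coding bases 229 to 288), with the differing bases in capitals. From its own bases alone, a read that covers it can be assigned to 1 of the genes, while a read inside an identical run cannot.
Ifit3, chr19:34587284-34587343, plus strand: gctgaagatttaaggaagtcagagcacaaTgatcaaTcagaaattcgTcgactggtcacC
Ifit3b, chr19:34611654-34611713, plus strand: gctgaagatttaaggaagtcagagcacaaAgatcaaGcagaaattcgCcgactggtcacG

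Over whole transcripts, 61.8% of the 31-base windows of Ifit3 occurred in Ifit3b and 54.1% of those of Ifit3b occurred in Ifit3. At 100 bases these shares were 31.7% for Ifit3 and 27.4% for Ifit3b. The other genes shared far less at 31 bases. Ifit1 shared 9.16% of its windows with Ifit1bl2 and 5.23% with Ifit1bl1, and Ifit1bl1 shared 18.7% with Ifit1bl2 and 6.22% with Ifit1. Ifit2 shared none with any of them. Coding identity outside gaps was 76.0% between Ifit1 and Ifit1bl1 and 88.2% between Ifit1bl1 and Ifit1bl2, or 73.2% and 87.4% with gaps counted. For Ifit2 against the other genes it lay between 56.5% and 62.2% outside gaps, and between 51.9% and 53.8% with gaps counted.

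**Figure D3:**
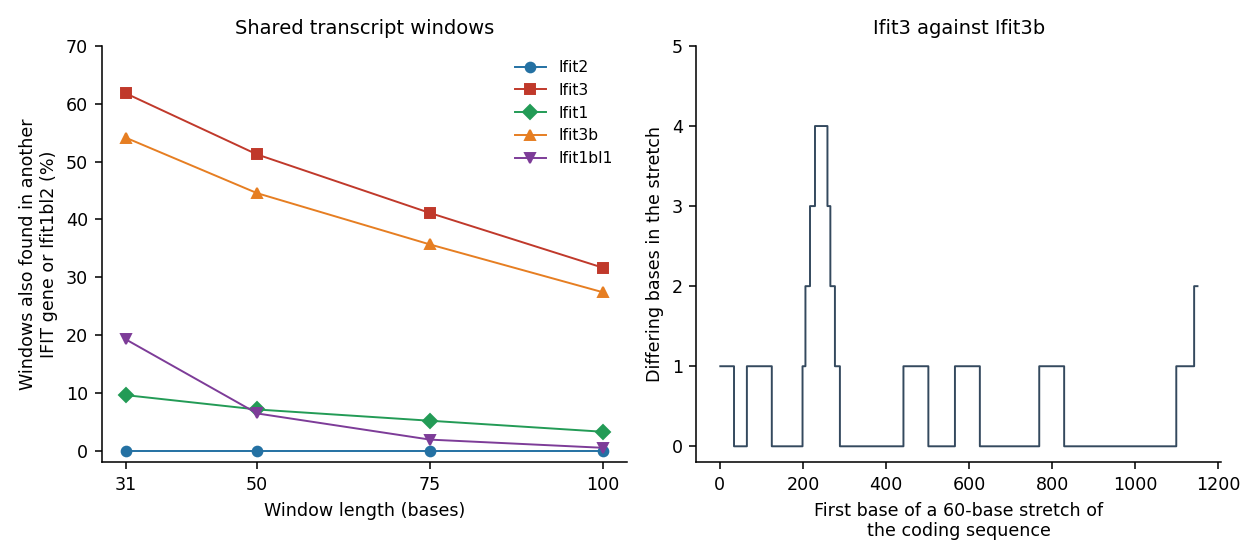
Left, the share of transcript windows of each gene that occur in another of the 5 genes or in Ifit1bl2 (vertical, %) against window length in bases (horizontal). Right, the number of differing bases between Ifit3 and Ifit3b in each 60-base stretch of the coding sequence (vertical) against the first base of the stretch (horizontal). Ifit3 and Ifit3b share the most at every window length, Ifit2 shares none, and the right panel peaks at 4 differences and is 0 for 63.9% of stretches.

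The deposited counts show how the reads were divided. Ifit2 and Ifit1bl1 had whole-number counts in all 3 libraries, with a deposited posterior SD of 0 counts. Ifit3 had 3766.9, 3842.1 and 3212.2 estimated counts and Ifit3b 360.1, 362.9 and 328.8 in replicates 1, 2 and 3. The sum of both genes was whole in every library, at 4127, 4205 and 3541 counts, within the 2 decimals of the tables. The pair thus divided a whole number of reads among its 2 members alone, as far as the decimals show. The posterior SD of the split was 12.4, 8.22 and 6.92 counts, which is 3.45%, 2.27% and 2.10% of the count of Ifit3b and 0.33%, 0.214% and 0.215% of that of Ifit3.

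Ifit3b made up 7.61%, 7.46% and 8.04% of the summed TPM of Ifit3 and Ifit3b, a share of 7.70 ± 0.299% (SD, n = 3). The ranges of the 2 genes were far from overlapping. In the read-based tables the share was 7.92%, 9.31% and 9.68%, or 8.97 ± 0.93%, higher than the alignment-based share in each library. Ifit1 and Ifit1bl2 behaved as a pair in the same way, with whole sums of 2624, 2969 and 4296 counts, but a posterior SD of at most 0.18 counts. Those SDs were at most 0.00687% of the count of Ifit1.

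Isoforms were annotated for Ifit2 and Ifit1bl1, with 2 each, and 1 transcript each for Ifit1, Ifit3 and Ifit3b. Ifit2-201, of 3818 bases in 3 exons, made up 99.5%, 99.8% and 99.9% of Ifit2 in the alignment-based tables, with a mean of 99.8 ± 0.229% (SD, n = 3). In the read-based tables it made up 97.7 ± 1.06%. The rest was Ifit2-202, a transcript of 700 bases in 4 exons.

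The alignment-based isoform share of Ifit1bl1 differed between libraries. Ifit1bl1-202 made up 99.8% and 100% of the gene in replicates 1 and 2 but 41.4% in replicate 3, a mean of 80.4 ± 33.8% (SD, n = 3). The share without replicate 3 was 99.9%. The 2 isoforms, of 2193 and 2200 bases, share an exon of 2133 bases and differ in the first exon, so that 98.6% of the 31-base windows of Ifit1bl1-201 occur in Ifit1bl1-202 too. The posterior mean counts of Ifit1bl1-201 were 115 ± 79.5, 103 ± 55.6 and 214 ± 73.5 (posterior SD within a library) in replicates 1, 2 and 3, against 299, 215 and 221 for Ifit1bl1-202 with the same SDs. On these counts Ifit1bl1-202 had 72.3%, 67.7% and 50.9% of the gene. In the read-based tables it had 89.5%, 94.6% and 78.5% of the TPM. Replicate 3 was lowest by all 3 estimates, which use the same libraries and so are not independent, while the size of its gap differed. Posterior SDs of 55.6 to 79.5 counts, beside gene totals of 318 to 435 counts, leave these shares uncertain. The gene's own total of 414, 318 and 435 counts carries no such split.

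**Figure D4:**
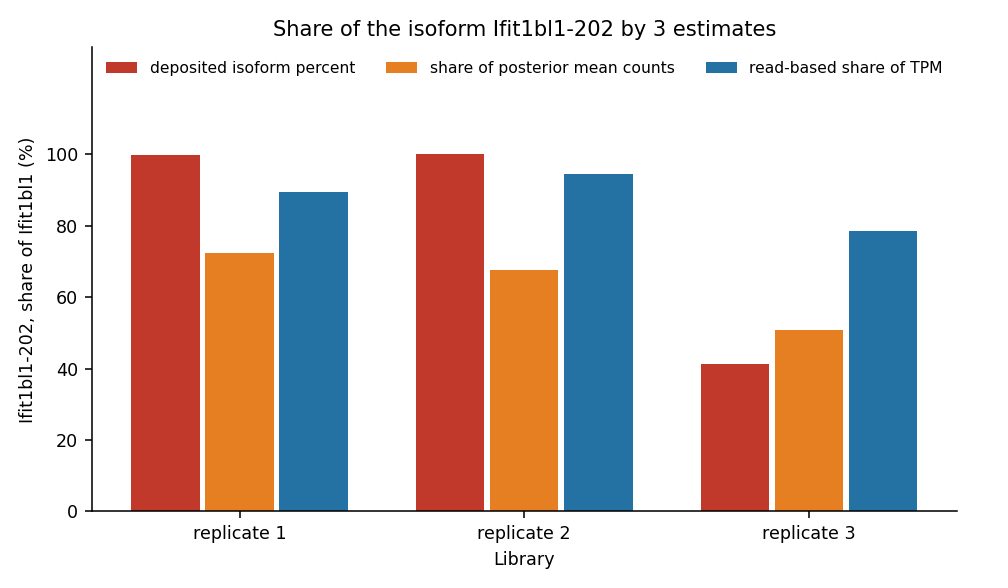
Share of Ifit1bl1 assigned to the isoform Ifit1bl1-202 (vertical, %) in each library (horizontal) by the deposited isoform percent, the posterior mean counts and the read-based TPM, 1 bar per library and estimate. The deposited isoform percent is 41.4% in replicate 3, where the read-based share is 78.5%.

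Between quantifications, the 5 genes kept their order. Read-based means were 151 TPM for Ifit2, 130.1 TPM for Ifit3, 71.6 TPM for Ifit1, 12.5 TPM for Ifit3b and 11.1 TPM for Ifit1bl1. None of the 5 was over 2-fold apart in all 3 libraries, against 9.23% of expressed protein-coding genes. Alignment-based values lay above read-based values in all 3 libraries for 4 of 5 genes, against 6.71% of expressed protein-coding genes, whose median difference was -0.40 on the log2 scale. The exception was Ifit3b, with -0.01 in replicate 1.

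On the values as deposited, the difference between quantifications was near 0 in replicate 1 and larger in replicates 2 and 3. Ifit2 differed by 0.01, 0.52 and 0.45 log2 units in replicates 1, 2 and 3, Ifit3 by 0.05, 0.55 and 0.46, and Ifit1 by 0.02, 0.50 and 0.47. Ifit1bl1 followed them with 0.02, 0.47 and 0.48. Ifit3b differed less, by -0.01, 0.20 and 0.17. The deposited effective lengths of replicate 1 also differ from those of the other libraries, as given above, and their part in this difference was not tested. The median difference of expressed protein-coding genes was -0.44, -0.32 and -0.41 in replicates 1, 2 and 3, so the 5 genes lay above the usual difference in replicate 1 as well. In estimated counts the sign was the other way for all 5 genes, with mean differences between -0.60 for Ifit3b and -0.35 for Ifit2, beside larger read-based totals of 18806319, 31394979 and 30481399.

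The spread between libraries was narrow for Ifit2 and wider for the others. After TMM normalisation, which scales libraries to a common composition, Ifit2 had 742, 638 and 684 CPM, counts scaled to a common library total, and an SD of 0.11 in log2 CPM. That SD was higher than the SD of 10.1% of the 17110 genes. Ifit3 had 363, 216 and 189 CPM (SD 0.50), Ifit1 253, 167 and 253 CPM (SD 0.35), Ifit3b 34.7, 20.4 and 19.4 CPM (SD 0.46) and Ifit1bl1 39.9, 17.9 and 25.6 CPM (SD 0.58). The median SD was 0.46 over the 5 genes, 0.25 over expressed protein-coding genes and 0.345 over all 17110 genes.

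Replicate 1 set most of this spread for Ifit3 and Ifit3b. Without it their SDs were 0.14 for Ifit3 and 0.06 for Ifit3b, and those of Ifit2 and Ifit1bl1 were 0.07 and 0.36. Ifit1 turned on replicate 2 instead, with an SD of 0.0032 without that library. On the CPM scale, 4 of 5 genes were highest in replicate 1, against 38.1% of expressed protein-coding genes, the exception being Ifit1, where replicates 1 and 3 were level. On the TPM scale, 3 of 5 genes, Ifit3, Ifit3b and Ifit1bl1, were highest in replicate 1, against 17.7% of expressed protein-coding genes. Ifit2 had its highest CPM but its lowest TPM in replicate 1, so the order of libraries for that gene depends on the scale.

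Beside the rest of the interferon pathway, the upper IFIT set lay within the range of the other interferon-stimulated genes. Of 41 listed pathway genes, 38 were expressed. The median over the 41 was 111 TPM, against 12.1 TPM over all expressed protein-coding genes. In all 3 libraries, 11 of the 41 lay above every IFIT gene and 5 below every IFIT gene. The other 25 did neither in all 3 libraries, though some lay above in single libraries, such as Mx2 in replicates 1 and 3. The lists were not chosen independently of earlier results on these data, so these counts are a description. They use alignment-based TPM only.

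Among the interferon ligands, Ifnb1 was expressed at 3.94, 2.08 and 3.50 TPM, below all IFIT genes, and Ifna2, Ifna4 and Ifna5 were listed at 0 in all 3 alignment-based tables. The receptor subunits and kinases were all expressed between the lowest and highest IFIT gene, with Tyk2 at 123 ± 23.5 TPM, Ifnar1 at 92.9 ± 15.3 TPM and Jak1 at 58.5 ± 1.16 TPM (SD, n = 3 each). Among the transcription factors, those above every IFIT gene in each library included Stat2 at 554 ± 138 TPM, Irf7 at 298 ± 72.0 TPM and Irf1 at 290.0 ± 99.7 TPM (SD, n = 3 each). Irf9, the DNA-binding partner of Stat2, was lower at 42.9 ± 3.80 TPM. Of the inhibitors, Usp18, which blocks signalling at the receptor, averaged 111 ± 39.8 TPM, while Socs1, an inhibitor of the kinases, averaged 4.51 ± 1.51 TPM, below all IFIT genes.

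All 25 other interferon-stimulated antiviral genes were expressed, and 7 of them lay above every IFIT gene in each library. The highest were the dynamin-like antiviral gene Mx1 at 764, 1244 and 994 TPM, the oligoadenylate synthetase-like gene Oasl2 at 840.0, 789 and 819 TPM, and Rsad2, which encodes viperin, at 814, 534 and 614 TPM. Oasl1, Herc6, Cxcl10 and Ifi204 were the other 4, with means of 431, 354, 276 and 231 TPM. The remaining 18 were neither above nor below every IFIT gene in all 3 libraries. Of these, Cmpk2, Ifih1, Oas2, Mx2 and Trim30a had means of 222, 214, 207, 204 and 197 TPM. Those means exceeded the 189 TPM of Ifit2, and the means of the others did not. By read-based TPM these genes also lay above Ifit2, which averaged 151 TPM. So did Ddx58, Xaf1 and Eif2ak2, at 236, 225 and 188 TPM, while the rest did not. Which genes exceed Ifit2 therefore depends on the quantification.

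**Figure D5:**
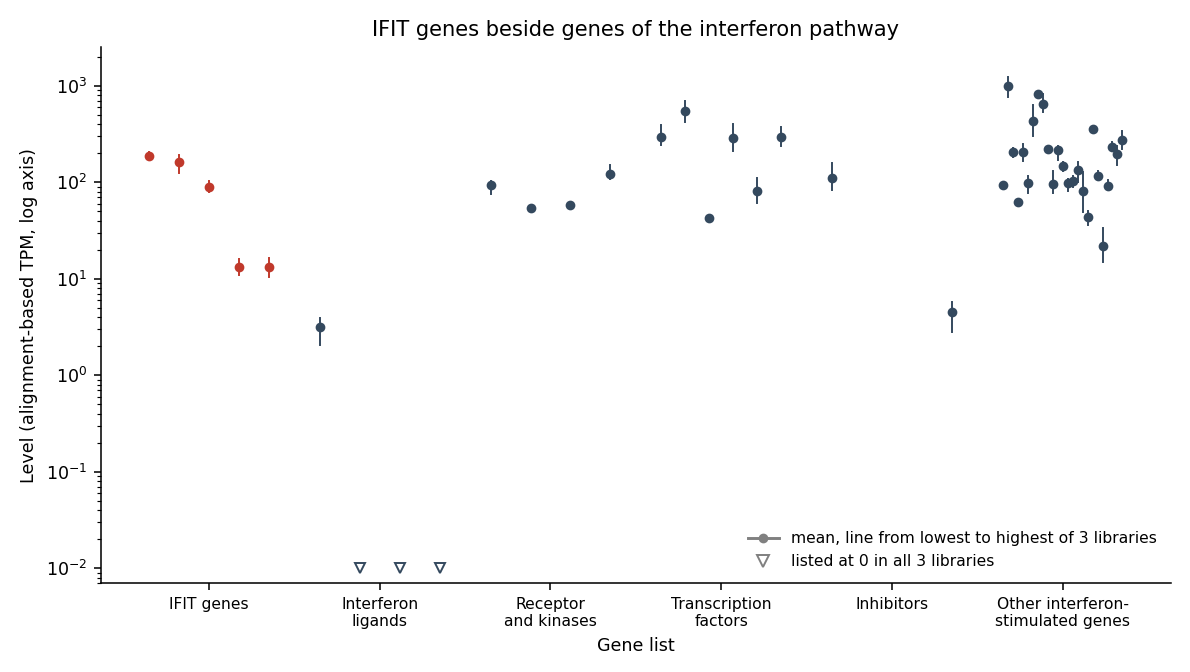
Mean level in alignment-based TPM on a log axis (vertical) of the 5 IFIT genes (red, leftmost) and of the 41 pathway genes by list (horizontal), with a line from the lowest to the highest of the 3 libraries and open triangles for genes listed at 0. Ifit2, Ifit3 and Ifit1 lie among the other interferon-stimulated genes, and the means of Ifit3b and Ifit1bl1 lie below the lowest mean among them.

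The genes most like Ifit2 over the 3 libraries were named by the smallest Euclidean distance of log2(TPM + 0.1) among protein-coding genes whose effective length was 200 bases or more. They were Myof at a distance of 0.11, Pabpc1 at 0.12, U2af2 and Ms4a6c at 0.16 each and Wdr1 at 0.17. With 3 libraries of 1 condition, this measure mainly finds genes of about the same level, and Myof for example had 172, 196 and 202 TPM.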

How the data were processed

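The 3 libraries were total RNA of the chromatin fraction of macrophages in 1 condition. Per the file headers, the deposited gene and transcript tables have the layout of RSEM output, with expected counts, TPM, posterior means, intervals and isoform percent. A second deposited transcript table has the layout of kallisto output. Its estimated counts and TPM are called read-based. The build was mm10 with GENCODE M21, per the deposited notes. The sources used here give neither program versions nor strand settings. Because TPM is a share of all rows, abundant short RNAs lower it. Positions and transcript sequences come from GENCODE M21 and promoters from RefSeq. Read-based TPM was summed per gene.

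The members and gene lists were chosen with earlier results of these data known. Genes named beside the members are those of fixed lists above the highest or below the lowest member, the 3 highest of each list, neighbours on the chromosome and the 5 genes nearest to Ifit2. Some genes this picks are not reported here. Expected counts were rounded for edgeR 4.0.16 (R 4.3.3) with TMM normalisation, a minimum of 10 counts over all libraries, a prior count of 0.5 and an intercept-only design, and no contrast was tested. Sign-flip permutation tests ran in Python 3.11.15. Alternatives were the read-based and posterior mean values, rescaled TPM, TPM minimums of 0.5 and 5 or none, pseudocounts of 0.01 and 1, DESeq2 1.42.0 size factors, library totals, no count filter, a prior count of 2, longer windows and leaving out each library. The code was tested on simulated data.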

Additional observations from a re-analysis of the deposited data

How the results depend on the processing

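Levels kept their order into an upper and a lower set under every alternative run, but single values moved. With read-based TPM the mean was 151 for Ifit2 and 71.6 for Ifit1. Rescaled over long nuclear genes the means were 473 TPM for Ifit2, 412 for Ifit3, 226 for Ifit1, 34.3 for Ifit3b and 34.5 for Ifit1bl1. The percentile among expressed genes moved with the genes compared. At a minimum of 5 TPM it was 96.4 for Ifit2, 95.5 for Ifit3, 89.4 for Ifit1, 29.3 for Ifit3b and 29.1 for Ifit1bl1, because fewer low genes were kept. With no minimum it was 99.0 for Ifit2, 98.7 for Ifit3, 97.0 for Ifit1 and 80.3 for both Ifit3b and Ifit1bl1. With read-based TPM, among genes expressed by read-based TPM, it was 96.1 for Ifit2, 94.9 for Ifit3, 88.6 for Ifit1, 49.0 for Ifit3b and 45.8 for Ifit1bl1. Among the 9245 genes expressed by alignment-based TPM, the read-based percentiles were 95.2, 93.8, 86.2, 39.2 and 35.5 for the same genes. At a minimum of 0.5 TPM by alignment it was 97.8 for Ifit2, whose percentile ranged between 97.6 and 97.9 on leaving out each library.

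With CPM, which does not divide by length, the difference of Ifit2 minus Ifit3 was 1.48 (exact p = 0.25) and that of Ifit3 minus Ifit1 was 0.16 (exact p = 0.75). The difference of Ifit3b minus Ifit1bl1 turned to -0.14 with CPM and ranged between -0.15 and 0.15 on leaving out each library. Alignment-based minus read-based log2 differences, centred on the median of expressed genes, were 0.72 for both Ifit1 and Ifit2, 0.71 for Ifit1bl1, 0.74 for Ifit3 and 0.51 for Ifit3b. In estimated counts they were -0.38 for Ifit1, -0.39 for Ifit1bl1, -0.35 for Ifit2, -0.36 for Ifit3 and -0.60 for Ifit3b, and the cause was not tested. The read-based share of Ifit2-201 was 97.7%.

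On leaving out each library, the SD of log2 CPM ranged between 0.0032 and 0.43 for Ifit1, 0.36 and 0.82 for Ifit1bl1, 0.0696 and 0.16 for Ifit2, 0.14 and 0.67 for Ifit3, and 0.0564 and 0.60 for Ifit3b. Shares of windows found in the other IFIT genes or Ifit1bl2 fell with window length, since a longer window holds each shorter one. At 50, 75 and 100 bases they were 7.13%, 5.19% and 3.29% for Ifit1, 6.45%, 1.92% and 0.51% for Ifit1bl1, 51.2%, 41.1% and 31.7% for Ifit3, and 44.5%, 35.7% and 27.4% for Ifit3b. Of 197 recomputed values, 145 counted as unchanged. For a level, percentile, isoform share or difference between quantifications, that meant within the spread between libraries. For an SD it meant within 1.5 times, for a window share within the counting interval, and for a difference between genes the same sign. Leaving out a library cannot move a mean level, isoform share or difference between quantifications beyond that spread. Those values stayed by construction, so the 145 does not measure stability.

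No paired analysis was possible because all libraries belong to 1 group. With 3 libraries, no sign-flip test can reach the usual threshold, and the shallowest library, replicate 1, is also the one that stands apart. Ifit2, Ifit3 and Ifit1 rest on 2619 or more counts per library, while Ifit1bl2 rests on 5.01 to 12.0 counts. The division of shared reads adds a posterior SD of 6.92 to 12.4 counts to Ifit3 and to Ifit3b.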
